A study of Mus musculus with 4 samples.

Results

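Receptor tyrosine kinases other than the ErbB family were examined in mouse intestinal organoids, cultures that isolated crypts form when grown in gel and that keep dividing and mature cells of the epithelium side by side. The genes were chosen by symbol among the counted features. They were Met, Mst1r, Igf1r, Insr, Kit, Fgfr2, Fgfr3, Ephb2, Ephb3 and Epha2, 10 of the 31040 genes counted, and all 10 were found. The knockout group (KO 1 and KO 2, the iDKO libraries of the labels) had Cbl and Cblb deleted by 4-hydroxy-tamoxifen at 400 nM for 3 days. The control group (control 1 and control 2) was grown without 4-hydroxy-tamoxifen. All 4 libraries came from crypts of 2 mice aged 10 weeks that carried Cbl flox/flox, Cbl-b flox/flox and R26Cre ERT2, so the controls held the floxed alleles and the inducible recombinase as well. Each mouse gave 1 library of each group (n = 2 per group), and library numbers are mouse numbers. Deletion and exposure to 4-hydroxy-tamoxifen cannot be told apart in this design, and the labels name neither the strain background nor a vehicle.

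A receptor tyrosine kinase spans the cell membrane. When its ligand binds outside the cell, the receptors pair or cluster, phosphorylate each other inside, and recruit adaptors that start signalling. Cbl and Cblb are ubiquitin ligases that bind many activated receptors of this kind, Met and Kit among them, and mark them for internalisation and breakdown as proteins. In the intestine the EphB receptors and their ephrin-B ligands are known for keeping crypt and villus cells in order, and the insulin, IGF, HGF and FGF receptors carry growth and metabolic signals. The values here are RNA counts and hold no receptor protein.

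The files gave UMI counts, 1 per captured RNA molecule. KO 1 and KO 2 held 28597336 and 35592468 UMIs in 1702 and 1983 barcodes, and control 1 and control 2 held 27855911 and 22139560 UMIs in 1208 and 709 barcodes. After filtering, 1627 and 1902 KO cells and 1148 and 682 control cells were kept, with median depths of 16071 and 17505.5 UMIs per KO cell and 19555 and 27457.5 UMIs per control cell. KO 1 and KO 2 each shared 1 cell barcode with control 1, and the other pairs of libraries shared 0. Cbl, the first targeted gene, had 12.3 and 10.5 CPM (UMI counts scaled to the library total) in KO 1 and KO 2 and 17.0 and 19.9 CPM in control 1 and control 2. Cblb had 3.35 and 0.464 CPM in KO 1 and KO 2 and 8.51 and 3.93 CPM in control 1 and control 2. Every KO library lay below the control of its own mouse, although the tags may lie outside the deleted parts and KO 1 and control 2 were close for Cblb. Summed markers of cells outside the epithelium were low: immune genes had 1.58 to 2.42 CPM with Cd3e and Cd3g at 0 in all 4 libraries, glial genes 1.22 to 2.46 CPM with Sox10 and Gfap at 0, endothelial genes 0.36 to 0.667 CPM, mesenchymal genes at most 0.174 CPM and erythroid genes 0.

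Cells were clustered, and clusters were named from marker lists. Named classes were stem-like (led by Olfm4 and Mcm genes), cycling-like, enterocyte-like, goblet-like, Paneth-like, enteroendocrine-like, tuft-like and regenerative-like cells. The last was led by Clu, Anxa1 and Ly6d, genes of injury repair, and also by the goblet genes Zg16 and Clca1. Cycling-like cells joined cluster 0, led by mitotic genes, with cluster 1, led by Slc7a11, Psph, Phlda3 and Bax, and the mix differed: clusters 0 and 1 held 352 and 113 cells in KO 1, 182 and 464 in KO 2, 220 and 40 in control 1 and 60 and 87 in control 2. Enterocyte-like cells joined clusters 3, 8 and 12, again in differing mixes, with 68, 89 and 48 cells in KO 1, 227, 51 and 11 in KO 2, 74, 66 and 100 in control 1 and 218, 28 and 16 in control 2. A deep cluster led by Atoh1, Agr2, Creb3l1, Spdef and Dll1 (cluster 7) had no name by these rules and is called the Atoh1-led cluster, while 4 further unnamed clusters of low depth were used only in the sums over all cells. Enterocyte-like cells made up 12.6% and 15.2% of cells in KO 1 and KO 2 and 20.9% and 38.4% in control 1 and control 2. Regenerative-like cells followed the mouse and not the group, with 0.676% and 7.26% in KO 1 and KO 2 and 1.13% and 9.97% in control 1 and control 2. Only Kit was among the genes used for clustering, and a clustering without the 10 receptors gave 95.39% of cells the same class.

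The receptors fell into several patterns across the classes. Levels are given as the mean over the 4 libraries of the CPM within a class, as a description with no test, since the classes come from the same cells. Kit, the stem cell factor receptor, was a receptor of secretory cells. It averaged 90.8 CPM in goblet-like, 55.7 in Atoh1-led, 50.3 in enteroendocrine-like and 45.4 in Paneth-like cells, and 0.864 CPM or less in cycling-like, stem-like and enterocyte-like cells. In enterocyte-like cells Kit had 0 UMIs in KO 1, KO 2 and control 2, which allows up to 1.88, 0.879 and 0.588 CPM by counting error, and 1 UMI in control 1. Free Kit RNA in the droplets was thus at or near 0 as read in that class. The lowest Paneth-like library (29.7 CPM) lay above the highest regenerative-like library (14.01 CPM), so the secretory and the other classes did not overlap. The few tuft-like cells had 178 and 215 CPM of Kit in KO 1 and KO 2 and 162 and 0 CPM in control 1 and control 2, from 10 UMIs or fewer in each library.

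**Figure D1:**
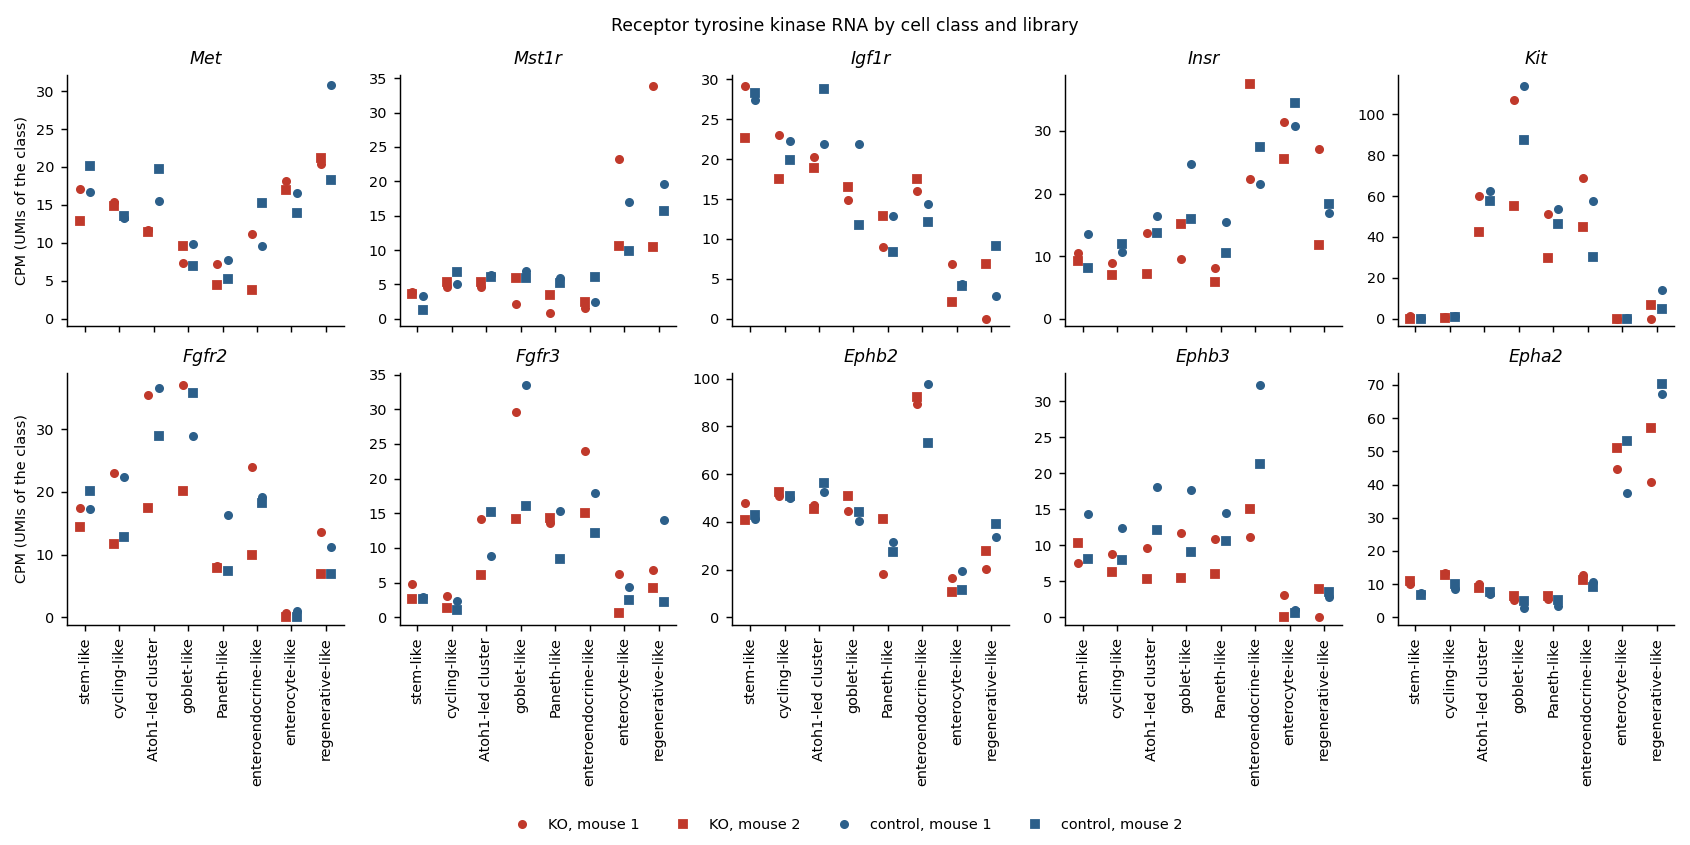
CPM of each receptor (y axis, linear, its own scale per gene) in 7 named classes and the Atoh1-led cluster (x axis), with 1 point per library, KO in red left of control in blue, circles for mouse 1 and squares for mouse 2. Kit lies near 0 in stem-like, cycling-like and enterocyte-like cells, Epha2 and Mst1r are high in enterocyte-like and regenerative-like cells, and Ephb2 is highest in enteroendocrine-like cells.

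The FGF receptors overlapped with Kit in the goblet-like class. Fgfr2 averaged 30.5 CPM in goblet-like and 29.6 in Atoh1-led cells, 17.5 CPM in cycling-like and 17.3 CPM in stem-like cells, and 0.428 CPM in enterocyte-like cells, where KO 2 and control 2 had 0 UMIs. Fgfr3 averaged 23.3 CPM in goblet-like, 17.2 in enteroendocrine-like, 12.9 in Paneth-like and 11.1 in Atoh1-led cells, against 3.25 CPM in stem-like and 1.95 CPM in cycling-like cells. Fgfr2 thus extended into cycling-like and stem-like cells, and Fgfr3 hardly did, although both were present in Atoh1-led cells. Neighbouring classes in either order overlapped between libraries, except that every regenerative-like library lay above every enterocyte-like one for Fgfr2.

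Igf1r and the EphB receptors were lowest in enterocyte-like cells. Igf1r, the receptor of the insulin-like growth factors, averaged 26.9 CPM in stem-like, 22.4 in Atoh1-led and 20.7 in cycling-like cells and 4.35 CPM in enterocyte-like cells. Regenerative-like cells were nearly as low, at 4.69 CPM of Igf1r, and overlapped with enterocyte-like cells. Ephb2 averaged 88.2 CPM in enteroendocrine-like cells, where the lowest library (73.0 CPM) lay above the highest of every other class in this order. It then had 51.1 CPM in cycling-like cells, with the 4 libraries between 49.8 and 52.6 CPM, and 50.3, 45.0 and 43.2 CPM in Atoh1-led, goblet-like and stem-like cells. Enterocyte-like cells had 14.4 CPM of Ephb2, and within them cluster 8, led by Mgat4c and Reg3g, had 28.2 and 27.8 CPM in KO 1 and KO 2 and 44.8 and 38.9 CPM in control 1 and control 2, while cluster 3, led by Tmigd1 and Apoa1, had 8.2 CPM or less in all 4 libraries. Ephb3, a further ephrin-B receptor, averaged 19.9 CPM in enteroendocrine-like cells and between 8.90 and 11.3 CPM in the secretory, stem-like and cycling-like classes, which overlapped. It had 2.54 CPM in regenerative-like and 1.20 CPM in enterocyte-like cells, which also overlapped.

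Insr, Epha2 and Mst1r went against a crypt label: they were highest in the enterocyte-like or regenerative-like class. Epha2, the receptor for ephrin-A1, averaged 58.8 CPM in regenerative-like and 46.5 in enterocyte-like cells, and the lowest of those libraries (37.4 CPM) was above the highest library of the cycling-like class, next in order at a mean of 11.2 CPM. Mst1r, the receptor for macrophage-stimulating protein and also called Ron, averaged 19.9 CPM in regenerative-like and 15.2 in enterocyte-like cells, against 5.56 CPM or less elsewhere. Insr, the insulin receptor, averaged 30.6 CPM in enterocyte-like and 27.2 in enteroendocrine-like cells, and was lowest, at 9.63 CPM, in cycling-like cells. Met, the HGF receptor, had the flattest pattern apart from secretory cells, with 22.6 CPM in regenerative-like, 16.7 in stem-like, 16.4 in enterocyte-like and 14.3 in cycling-like cells and 8.44 and 6.16 CPM in goblet-like and Paneth-like cells. All neighbouring classes overlapped for Met and for Insr.

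The genes nearest to each receptor by class pattern were picked for that likeness. Likeness was the Pearson correlation of log2(CPM + 1) over 29 sums of a class in a library, which share libraries and depth and are given with no p. Kit was most like Hpd, Rap1gap and Cib2 (r = 0.974, 0.952 and 0.9497), Epha2 was most like Rab11a, Ezr and Actb (0.959, 0.954 and 0.947), and Fgfr2 was most like Sox9, Slc29a1 and Spop (0.939, 0.915 and 0.914). Ephb2 was closest to Sorbs2 (0.936), Igf1r to Cers4 (0.939), Met to Gss (0.919), Fgfr3 to 5330417C22Rik (0.900), Ephb3 to Stk39 (0.889), Insr to Smim22 (0.873) and Mst1r to Efnb2 (0.855), which encodes an ephrin-B ligand. Among the receptors, Igf1r and Ephb3 were the most alike pair (0.832), Fgfr2 and Ephb2 gave 0.743, Ephb2 and Ephb3 gave 0.707 and Mst1r and Epha2 gave 0.701.

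The promoters of the 2 pairs Ephb3 with Igf1r and Epha2 with Mst1r are shown because their RNA patterns ran alike within each pair and opposite between them. They are the 250 bases before the annotated start in RefSeq (GRCm38.p6), 5′ to 3′ on the gene's strand, with CTTTGA, the core letters bound by TCF/LEF factors of the Wnt pathway, in capitals. Both strands were searched.
Ephb3, chr16:21204545-21204794 (plus strand): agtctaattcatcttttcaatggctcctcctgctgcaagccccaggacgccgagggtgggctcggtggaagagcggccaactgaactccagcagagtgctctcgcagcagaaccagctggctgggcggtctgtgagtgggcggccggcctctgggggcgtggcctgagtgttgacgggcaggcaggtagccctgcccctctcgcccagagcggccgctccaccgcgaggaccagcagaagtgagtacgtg
Igf1r, chr7:67952007-67952256 (plus strand): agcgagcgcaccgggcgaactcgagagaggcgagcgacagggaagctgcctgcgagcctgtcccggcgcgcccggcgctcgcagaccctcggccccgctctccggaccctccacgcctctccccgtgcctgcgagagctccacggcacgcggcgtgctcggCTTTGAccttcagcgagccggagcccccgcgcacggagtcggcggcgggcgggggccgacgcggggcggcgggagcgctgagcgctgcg
Epha2, chr4:141300971-141301220 (plus strand): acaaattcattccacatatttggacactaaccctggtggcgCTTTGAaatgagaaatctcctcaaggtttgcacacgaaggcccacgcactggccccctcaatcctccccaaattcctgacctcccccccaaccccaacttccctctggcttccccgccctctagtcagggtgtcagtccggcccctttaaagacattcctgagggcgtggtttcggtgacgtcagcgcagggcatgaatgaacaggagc
Mst1r, chr9:107906639-107906888 (plus strand): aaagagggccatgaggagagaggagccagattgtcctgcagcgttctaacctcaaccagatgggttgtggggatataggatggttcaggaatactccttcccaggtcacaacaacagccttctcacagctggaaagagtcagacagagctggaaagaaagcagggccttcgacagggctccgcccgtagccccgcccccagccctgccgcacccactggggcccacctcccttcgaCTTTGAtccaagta
In the windows shown, Igf1r, Epha2 and Mst1r held the letters once, 89, 209 and 14 bases before the start, and Ephb3 held none, as did the entries of Ephb2, Fgfr2, Fgfr3, Kit and Met. A further Mst1r entry, at chr9:107914753-107915002, also held none. The letters stood in 13.83% of all 32851 promoter windows of this length. A match describes the window and no more, and a window without one says nothing about the factor.

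Summed over all cells, Insr was the one receptor called between the groups, and only with the libraries paired by mouse. It had 11.4 and 11.0 CPM in KO 1 and KO 2, against 16.3 and 18.8 CPM in control 1 and control 2. The 95% counting intervals reached up to 12.7 and 12.2 CPM in the KO libraries and down to 14.8 and 17.0 CPM in the controls. Both KO libraries lay below both controls, and no KO interval met a control interval. The mean was 11.2 ± 0.272 CPM in KO and 17.5 ± 1.77 CPM in control libraries (SD, n = 2 each). With the replicate number as a block, which compares the libraries of each mouse, Insr fell by 0.69 on the log2 scale (SE 0.12, adjusted p = 0.0221, edgeR quasi-likelihood test, two-sided, Benjamini-Hochberg over 13246 genes). That fit called 11.9% of all genes tested, 1030 of them (7.78%) lower in KO. Insr was the only 1 of the 10 receptors called, which is close to the share of all genes, and 0 were called higher, against 4.10% of all genes. The fit with the group alone, which ignores the mice, gave Insr −0.69 ± 0.16 with an adjusted p of 0.563. It called 0 of 13246 genes, while 1138 had an unadjusted p under 0.05, with Insr the one receptor among them, and DESeq2 called 131 genes. DESeq2 with the block gave Insr an adjusted p of 0.0541, so the call rests on the edgeR fit with the block. In a sum over cells, fewer cells of a type and less RNA per cell cannot be told apart.

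**Figure D2:**
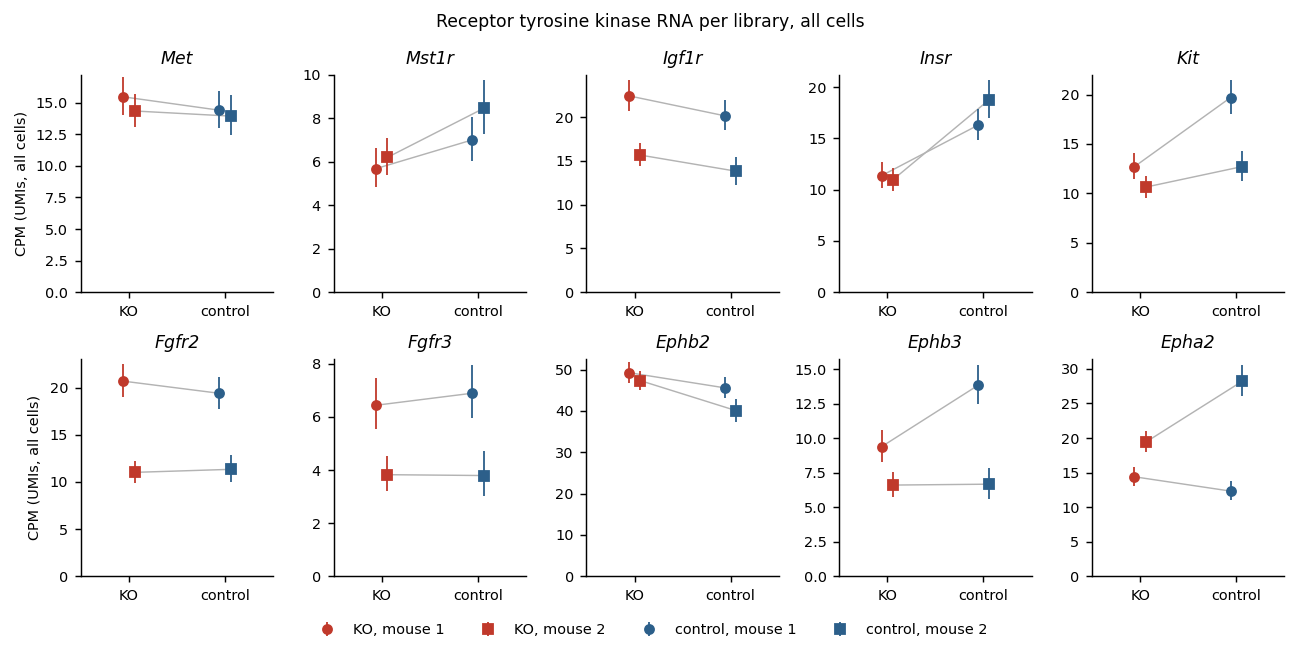
CPM of each receptor summed over all cells (y axis, linear from 0), KO left of control, circles for mouse 1 and squares for mouse 2, with grey lines joining libraries of a mouse and bars for the exact Poisson 95% interval. Insr lies near 11 CPM in both KO libraries and above 16 CPM in both controls, whereas the mice separate for Igf1r, Fgfr2, Fgfr3, Ephb3, Epha2 and, narrowly, Met.

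The other receptors did not pass the test in all cells. Kit had 12.7 and 10.6 CPM in KO 1 and KO 2, against 19.7 and 12.7 CPM in control 1 and control 2. KO 1 was level with control 2, and the difference was −0.49 ± 0.13 (adjusted p = 0.0624 with the block). Once the 4 low-depth clusters were left out, the same fit called Kit (−0.47, adjusted p = 0.0439). It then called 2284 genes in total, against 1573 with those clusters kept. The group-alone fit in all cells gave −0.20 without control 1 and −0.75 without control 2. Mst1r had 5.69 and 6.20 CPM in KO 1 and KO 2, against 7.01 and 8.46 CPM in control 1 and control 2. The groups did not overlap, but the difference of −0.41 ± 0.14 missed the threshold (adjusted p = 0.111 with the block). Ephb2 likewise did not overlap in the opposite direction, at 49.3 and 47.3 CPM in KO 1 and KO 2 and 45.6 and 40.0 CPM in control 1 and control 2 (0.14 ± 0.08, adjusted p = 0.295).

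Levels of Igf1r, Fgfr2 and Fgfr3, and also of Met, Ephb3 and Epha2, did not overlap between the mice. For Met the gap was narrow, with 14.35 CPM in KO 2 and 14.41 CPM in control 1. The share of all genes that separate by mouse was not computed. Over 13246 genes the libraries of 1 mouse deviated together from their group means (correlation 0.660), so a difference between the mice is not particular to these receptors. Igf1r had 22.4 and 15.7 CPM in KO 1 and KO 2 and 20.1 and 13.8 CPM in control 1 and control 2. Fgfr2 had 20.7 and 11.0 CPM in KO 1 and KO 2 and 19.4 and 11.3 CPM in control 1 and control 2, and Fgfr3 had 6.44 and 3.83 CPM in KO 1 and KO 2 and 6.90 and 3.79 CPM in control 1 and control 2. In each, both mouse 1 libraries lay above both mouse 2 libraries, and the fitted differences between KO and control were 0.13 ± 0.10, −0.01 ± 0.11 and −0.09 ± 0.17 with the block. Fgfr2 is uncertain beyond this: its annotated model (GRCm38 chromosome 7, 130162451 to 133123350) overlaps 46 other counted genes. Ephb3 had 9.39 and 6.61 CPM in KO 1 and KO 2 and 13.8 and 6.67 CPM in control 1 and control 2, lower in KO in mouse 1 and nearly level in mouse 2 (−0.35 ± 0.17, adjusted p = 0.216). Epha2 had 14.4 and 19.4 CPM in KO 1 and KO 2 and 12.3 and 28.2 CPM in control 1 and control 2, with opposite differences in the mice. Met was nearly level, at 15.5 and 14.4 CPM in KO 1 and KO 2 and 14.4 and 13.9 CPM in control 1 and control 2 (0.03 ± 0.11, adjusted p = 0.866).

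The same test within classes called none of the receptors, and the fitted Insr difference was below 0 in the 5 classes tested. In stem-like cells the mice differed, with 10.5 and 9.27 CPM in KO 1 and KO 2 and 13.5 and 8.07 CPM in control 1 and control 2 (−0.33 ± 0.27, adjusted p = 0.757 with the block), and the group-alone fit without control 1 gave 0.26. In cycling-like cells Insr had 8.86 and 7.04 CPM in KO 1 and KO 2, against 10.6 and 12.004 CPM in control 1 and control 2. The groups did not overlap (−0.55 ± 0.18, adjusted p = 0.0633 with the block, which called 8.16% of 11318 genes). They did not overlap in either cluster of that class: cluster 0 had 9.5 and 8.3 CPM in KO 1 and KO 2 and 10.9 and 14.6 CPM in control 1 and control 2, and cluster 1 had 7.0 and 6.5 CPM in KO 1 and KO 2 and 8.8 and 10.3 CPM in control 1 and control 2. In Paneth-like cells Insr had 8.12 and 5.95 CPM in KO 1 and KO 2, against 15.4 and 10.5 CPM in control 1 and control 2 (−0.93 ± 0.39, adjusted p = 0.460, with 0.0454% of 6602 genes called, and 0.0151% by the group-alone fit). In goblet-like cells it had 9.53 and 15.1 CPM in KO 1 and KO 2, against 24.7 and 15.99 CPM in control 1 and control 2 (−0.62 ± 0.31, adjusted p = 0.387, with 1.89% of 8924 genes called). Neither class had overlapping groups, but the counting intervals of KO 2 and control 2 overlapped in both. In goblet-like cells they reached up to 21.2 CPM in KO 2 and down to 10.8 CPM in control 2. Paneth-like libraries had 18 UMIs of Insr or fewer. The intervals of KO 1 and control 1 also met in cycling-like cells and in both of their clusters. How many of all genes lacked overlap in these classes and clusters was not computed.

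In the classes where Insr was most abundant, the groups overlapped. Enterocyte-like cells had 31.4 and 25.5 CPM in KO 1 and KO 2 and 30.9 and 34.5 CPM in control 1 and control 2, with overlap (−0.21 ± 0.22, adjusted p = 0.939, with 1.93% of 9776 genes called). Within that class the clusters differed: cluster 3 had 34.3 and 23.3 CPM in KO 1 and KO 2 and 36.2 and 39.2 CPM in control 1 and control 2, without overlap, whereas the groups overlapped in cluster 8, with 16.6 and 34.7 CPM in KO 1 and KO 2 and 23.3 and 17.02 CPM in control 1 and control 2, and in cluster 12, with 50.4 and 17.5 CPM in KO 1 and KO 2 and 32.6 and 13.97 CPM in control 1 and control 2. Enteroendocrine-like cells had 22.3 and 37.4 CPM in KO 1 and KO 2 and 21.5 and 27.4 CPM in control 1 and control 2. The difference of effect between enterocyte-like and cycling-like cells was 0.32 ± 0.31 for Insr in the fit with the library as a block, which called 0.00860% of genes, and 0.33 ± 0.27 (adjusted p = 0.904) with the replicate number by class added, which called 1.19% of 11622 genes. Between goblet-like and cycling-like cells it was −0.06 ± 0.37 (adjusted p = 0.994, with 0.966% of 11081 genes called, and 0.0180% with the library alone as a block). None of the receptors tested was called in either comparison of effects, so a class with a particular Insr difference is not shown.

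Epha2 was higher in KO without overlap in the stem-like, cycling-like and secretory classes, lower in regenerative-like cells, where it was highest, and split between the mice in enterocyte-like cells. Those had 44.6 and 51.0 CPM in KO 1 and KO 2 and 37.4 and 53.2 CPM in control 1 and control 2 (0.10 ± 0.19, adjusted p = 0.985 with the block). Neither fit called Epha2 in a tested class as first clustered. The share of all genes whose groups do not overlap was not computed for any class. In cycling-like cells Epha2 had 13.3 and 12.8 CPM in KO 1 and KO 2, against 8.56 and 10.0 CPM in control 1 and control 2. The groups did not overlap (0.45 ± 0.16, adjusted p = 0.0850 with the block), nor did they in cluster 0, with 12.3 and 11.1 CPM in KO 1 and KO 2 and 8.2 and 5.5 CPM in control 1 and control 2, or in cluster 1, with 16.2 and 13.5 CPM in KO 1 and KO 2 and 10.7 and 12.8 CPM in control 1 and control 2. With cells clustered without the 10 receptors, the fit with the block called Epha2 in that class (0.61 ± 0.17, adjusted p = 0.0255), whereas the group-alone fit of the first clustering gave 0.30 without control 1. The fit with the block called 886 genes in that class when clustered so, against 924 in the first clustering. Stem-like cells had 9.92 and 10.8 CPM in KO 1 and KO 2, against 7.20 and 6.72 CPM in control 1 and control 2 (0.43 ± 0.30, adjusted p = 0.704, with 0.714% of 9799 genes called). Goblet-like, Paneth-like, enteroendocrine-like and Atoh1-led cells also had both KO libraries above both controls, without a call where tested. Each library had 25 UMIs or fewer of Epha2 in each of these classes, and the counting intervals of KO and control overlapped. Regenerative-like cells had 40.7 and 56.9 CPM in KO 1 and KO 2, against 67.3 and 70.2 CPM in control 1 and control 2, from 11 cells in KO 1 and 13 in control 1.

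**Figure D3:**
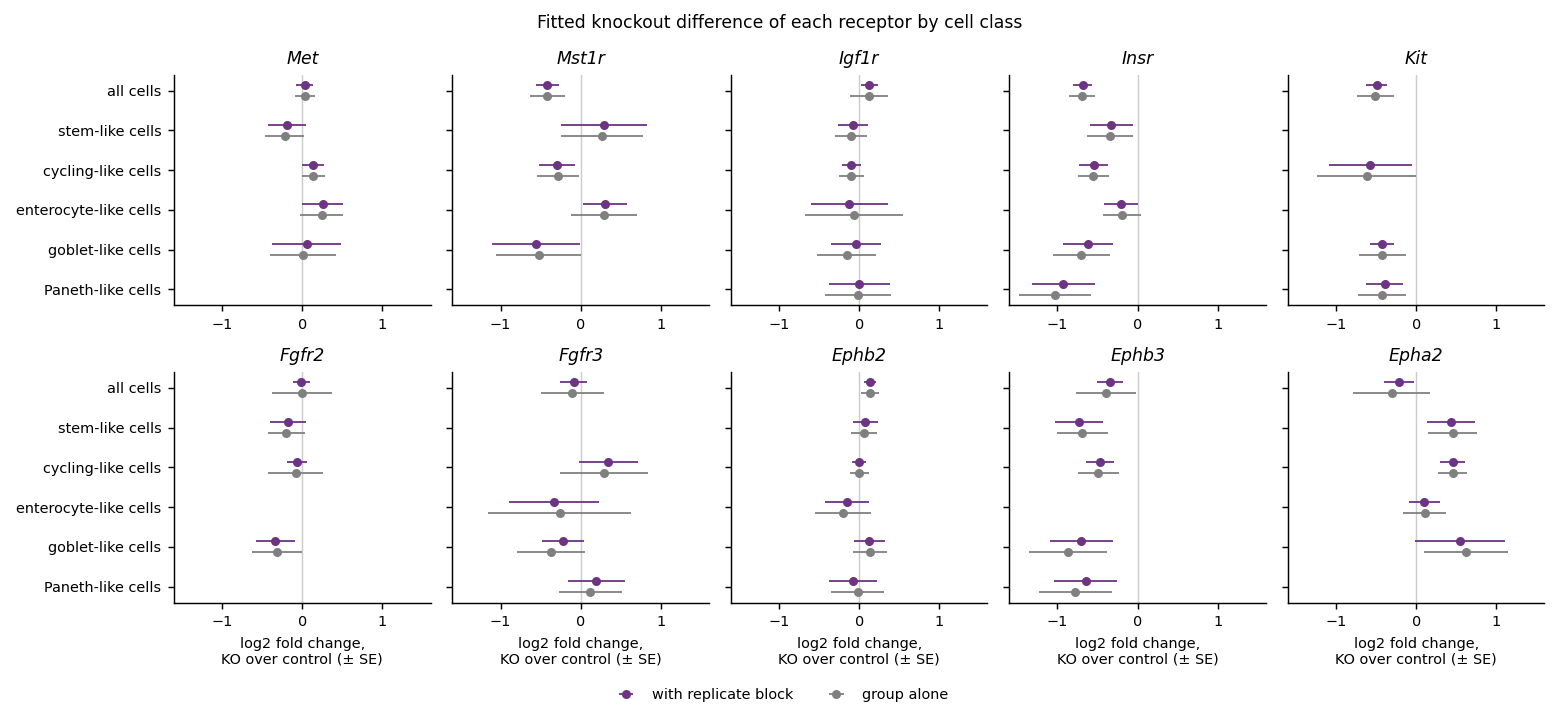
Fitted log2 fold change of each receptor, KO over control (x axis), in all cells and the 5 tested classes (y axis), with purple points for the fit with the replicate block and grey points for the group alone, and bars for 1 SE. Insr lies below 0 in every row and Ephb3 in every row where it was tested, while Ephb2 and Igf1r stay close to 0.

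Ephb3, Kit and Mst1r gave no call in any class. Ephb3 had 8.79 and 6.33 CPM in KO 1 and KO 2 in cycling-like cells, against 12.5 and 8.002 CPM in control 1 and control 2 (−0.47 ± 0.18, adjusted p = 0.112 with the block), each KO below the control of its mouse. In enteroendocrine-like cells Ephb3 had 11.2 and 14.98 CPM in KO 1 and KO 2, against 32.3 and 21.3 CPM in control 1 and control 2, without overlap. Those values came from 7 and 12 UMIs in KO 1 and KO 2 and 27 and 7 UMIs in control 1 and control 2. The counting interval of control 2, from 11 cells, met those of both KO libraries, and the class was not tested. In Atoh1-led cells Ephb3 had 9.63 and 5.33 CPM in KO 1 and KO 2, against 18.1 and 12.1 CPM in control 1 and control 2, again without overlap. Ephb2 was also lower in Atoh1-led cells, with 47.1 and 45.5 CPM in KO 1 and KO 2 and 52.5 and 56.1 CPM in control 1 and control 2, without overlap. Among the 10 receptors this was not particular to EphB: 8 were lower in KO in each mouse there, and 1, Epha2, was higher. The shares of all genes lower in KO in each mouse, or without overlap, were not computed for that cluster. Control 2 held 17 of its cells. Met, Mst1r and Igf1r also had no overlap in that cluster, which was not tested. In cycling-like cells Ephb2 had 51.0 and 52.6 CPM in KO 1 and KO 2 and 49.8 and 51.0 CPM in control 1 and control 2, a difference of 0.0002 ± 0.09. Kit in goblet-like cells, its main class, had 107 and 54.9 CPM in KO 1 and KO 2 and 114 and 87.4 CPM in control 1 and control 2, lower in KO in each mouse with overlap between groups (−0.43 ± 0.16, adjusted p = 0.171). Mst1r in enterocyte-like cells had 23.2 and 10.5 CPM in KO 1 and KO 2 and 17.1 and 9.81 CPM in control 1 and control 2, where it was higher in KO in each mouse although its sum over all cells was lower.

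The class shares moved with these sums, so each KO sum was also computed with the UMI shares of the control of the same mouse, as a description. For Insr the log2 ratio of KO to control was −0.52 as summed and −0.28 with control shares in mouse 1, and −0.77 and −0.48 in mouse 2, so it stayed below 0 in both. For Mst1r it was −0.30 as summed and 0.05 with control shares in mouse 1, and −0.45 and −0.23 in mouse 2. For Kit it was −0.63 as summed and −0.06 with control shares in mouse 1, and −0.26 and −0.45 in mouse 2. Ephb3 was at −0.62 and −0.35 with control shares in mouse 1 and mouse 2, and Ephb2 at 0.02 and 0.01. Epha2 was at 0.44 in mouse 1 and −0.06 in mouse 2 with control shares, against 0.22 and −0.54 as summed.

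**Figure D4:**
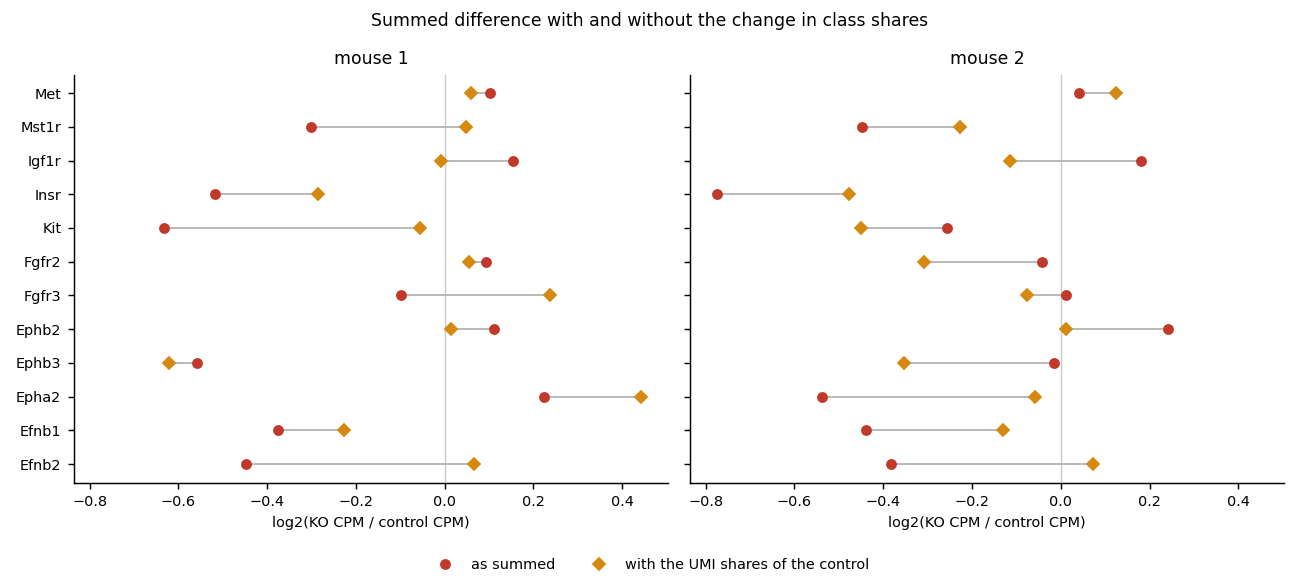
Log2 ratio of KO to control CPM (x axis, one scale for both panels) per mouse for the 10 receptors and 2 ephrin-B ligands (y axis), as summed (red circles) and with the UMI shares of the classes taken from the control of that mouse (orange diamonds). Insr lies below 0 under both in both mice, while Efnb2 moves to 0.07 in both mice with control shares.

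Ligands of these receptors differed widely in whether they were detected. Igf1, Igf2 and Fgf10 had 0 UMIs in all 4 libraries, which allows 0.137 CPM at most in the shallowest, and Fgf7 had 2 UMIs or fewer. Hgf, the Met ligand, had 1.33 and 0.754 CPM in KO 1 and KO 2 and 1.80 and 0.640 CPM in control 1 and control 2, and Mst1, the Mst1r ligand, had 0.319 CPM or less. Kitl, which encodes stem cell factor, had 34.8 and 37.9 CPM in KO 1 and KO 2 and 32.9 and 40.8 CPM in control 1 and control 2 (−0.05 ± 0.09, adjusted p = 0.731 with the block). By class, Kitl was low where Kit was high: in goblet-like cells it had 7.41 and 11.4 CPM in KO 1 and KO 2 and 9.32 and 5.86 CPM in control 1 and control 2. Enterocyte-like cells had 37.0 and 42.5 CPM of Kitl in KO 1 and KO 2, against 57.1 and 54.3 CPM in control 1 and control 2, and stem-like cells 41.7 and 49.0 CPM in KO 1 and KO 2, against 30.8 and 26.9 CPM in control 1 and control 2. Groups did not overlap in either class, in opposite directions.

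Efnb1 and Efnb2, which encode ephrin-B ligands, fell in the sum over all cells, and Efnb3 was not called (−0.05 ± 0.47, adjusted p = 0.959 with the block). Efnb1 had 28.2 and 29.4 CPM in KO 1 and KO 2, against 36.6 and 39.9 CPM in control 1 and control 2 (−0.45 ± 0.08, adjusted p = 0.0272 with the block). Efnb2 had 15.5 and 20.5 CPM in KO 1 and KO 2, against 21.2 and 26.7 CPM in control 1 and control 2 (−0.45 ± 0.10, adjusted p = 0.0408 with the block). KO and control did not overlap for either gene, and the fit with the group alone called neither. Without control 2 or KO 1, Efnb2 moved to −0.22 in the group-alone fit, and without KO 2 to −0.71. In enterocyte-like cells, where Ephb2 and Ephb3 were lowest, Efnb2 had 88.5 and 54.2 CPM in KO 1 and KO 2 and 95.6 and 61.0 CPM in control 1 and control 2. In cycling-like cells it had 10.5 and 12.7 CPM in KO 1 and KO 2, against 8.18 and 7.53 CPM in control 1 and control 2, higher in KO without overlap and without a call. With control shares Efnb2 was at 0.07 in each mouse, while Efnb1 stayed at −0.23 and −0.13. Efna1, the ephrin-A1 gene, had 30.01 and 22.9 CPM in KO 1 and KO 2 and 30.6 and 32.9 CPM in control 1 and control 2 (−0.31 ± 0.13, adjusted p = 0.167).

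**Figure D5:**
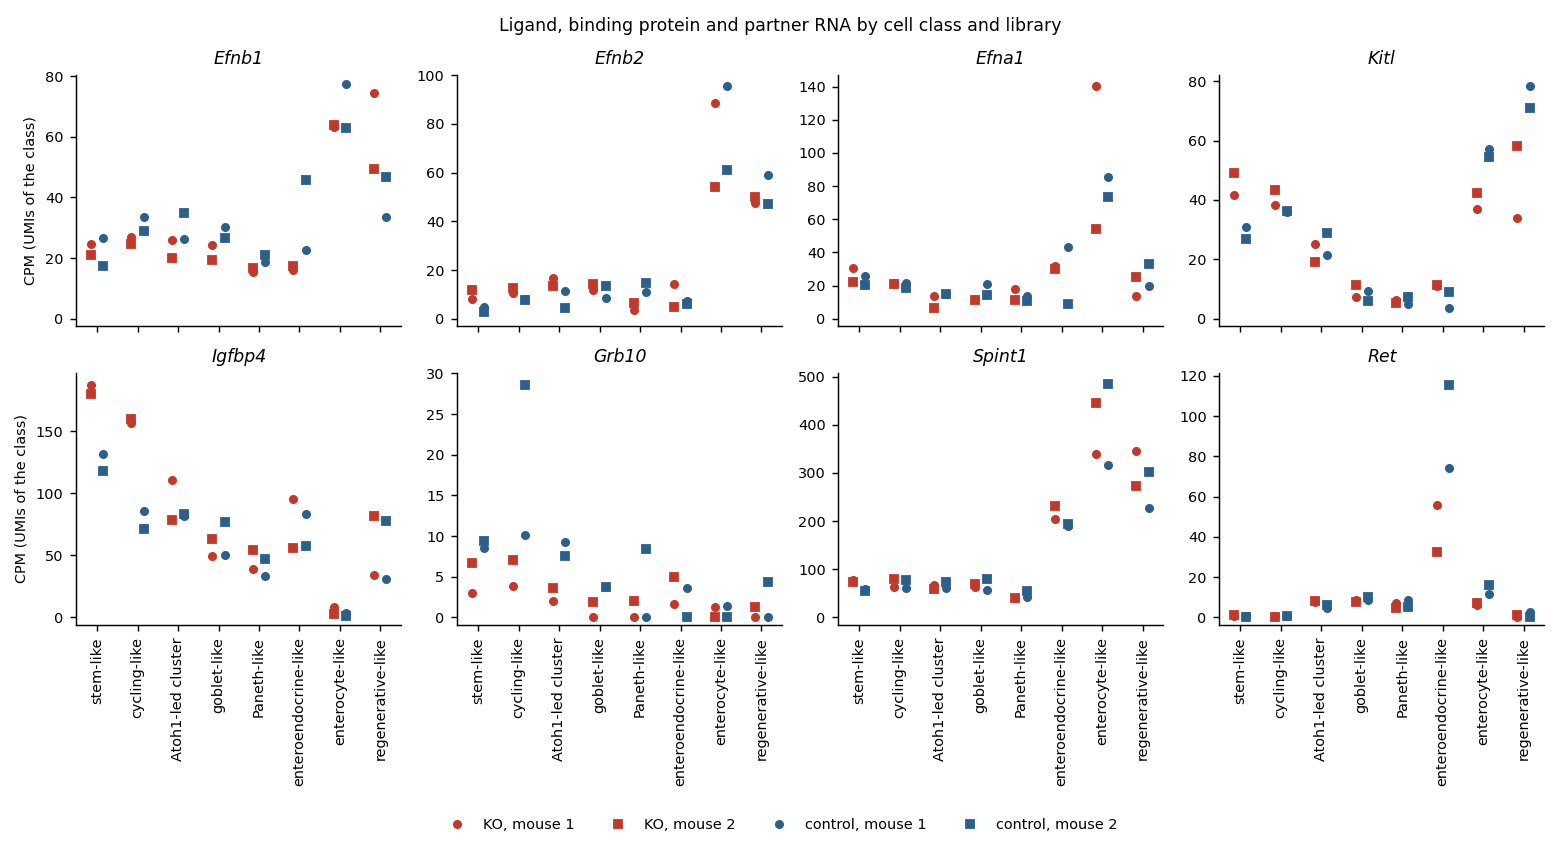
CPM of 4 ligands and of Igfbp4, Grb10, Spint1 and Ret (y axis, linear, own scale per gene) by class (x axis), with 1 point per library, KO in red left of control in blue, circles for mouse 1 and squares for mouse 2. Efnb2 is high in enterocyte-like and regenerative-like cells, Kitl is low in the secretory classes, and Igfbp4 is higher in both KO libraries of stem-like and cycling-like cells.

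Genes around the receptors were read from 5 lists, by their calls with the block in all cells, where 4.10% of all genes were called higher and 7.78% lower. Of 23 ligands, 13 were tested, 0 rose and 3 fell (median −0.25, against −0.01 over all genes tested). Of 19 ligand activators, binding proteins and co-receptors, 14 were tested, 3 rose and 1 fell (median −0.21). Of 24 adaptors and enzymes next to the receptor, all 24 were tested and 0 were called (median −0.11). Of 23 inhibitors and turnover genes, 22 were tested, 0 rose and 2 fell (median −0.02). Of 41 other receptor tyrosine kinases, 16 were tested, 0 rose and 2 fell (median −0.01). The group-alone fit called 0 of these genes in all cells.

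Binding proteins and co-receptors held the genes that rose. Igfbp4, which binds insulin-like growth factors and is also a marker of crypt base cells, had 141 and 116 CPM in KO 1 and KO 2, against 75.5 and 56.6 CPM in control 1 and control 2 (0.93 ± 0.08, adjusted p = 0.00374). In cycling-like cells it had 156 and 160 CPM in KO 1 and KO 2, against 86.0 and 70.8 CPM in control 1 and control 2 (0.97 ± 0.08, adjusted p = 1.93e-07), and with control shares its ratio stayed at 0.67 and 0.75 in mouse 1 and mouse 2. Cd44, whose product can act as a co-receptor of Met, had 77.5 and 79.3 CPM in KO 1 and KO 2, against 48.4 and 45.4 CPM in control 1 and control 2 (0.70 ± 0.08, adjusted p = 0.00651). Hpn, a membrane protease that can activate HGF, had 1.76 and 2.38 CPM in KO 1 and KO 2, against 0.697 and 0.320 CPM in control 1 and control 2, from 7 UMIs in control 2 (1.95 ± 0.44, adjusted p = 0.0427). In goblet-like cells Hpn also rose (2.80 ± 0.60, adjusted p = 0.00239), from 4 and 2 UMIs in control 1 and control 2. Spint1, an inhibitor of such proteases, fell by 0.48 (SE 0.11, adjusted p = 0.0469), with 86.3 and 132 CPM in KO 1 and KO 2 and 101 and 206 CPM in control 1 and control 2. These groups overlapped, the group-alone fit without control 2 gave 0.12, without KO 1 −0.22, without KO 2 −0.93 and without control 1 −0.97, and with control shares the ratios were 0.12 and −0.10.

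Grb10, an adaptor that binds the insulin and IGF1 receptors and restrains them, also fell. It had 3.35 and 4.93 CPM in KO 1 and KO 2, against 7.26 and 13.9 CPM in control 1 and control 2 (−1.36 ± 0.16, adjusted p = 0.00770). Most of its counts were in cycling-like cells, with 3.90 and 7.04 CPM in KO 1 and KO 2, against 10.1 and 28.6 CPM in control 1 and control 2 (−1.83 ± 0.18, adjusted p = 1.02e-06). With control shares it stayed at −1.33 and −1.84 in mouse 1 and mouse 2. Without control 2, the highest library, the group-alone fit gave −0.80 in all cells and −0.86 in cycling-like cells, in the same direction. Socs2, an inhibitor of growth hormone signalling, had 45.4 and 41.5 CPM in KO 1 and KO 2, against 52.4 and 56.0 CPM in control 1 and control 2 (−0.36 ± 0.09, adjusted p = 0.0482), and fell in cycling-like cells too (−0.54 ± 0.11, adjusted p = 0.00431; −0.29 without control 2 in the group-alone fit).

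Ret and Mertk were the other receptor tyrosine kinases that fell in all cells. Ret, the receptor of the GDNF family, had 3.31 and 3.16 CPM in KO 1 and KO 2, against 5.90 and 7.09 CPM in control 1 and control 2 (−1.04 ± 0.19, adjusted p = 0.0249). With control shares its ratio was −0.34 in mouse 1 and −1.01 in mouse 2. It was highest in enteroendocrine-like cells, with 55.8 and 32.4 CPM in KO 1 and KO 2, against 74.1 and 116 CPM in control 1 and control 2, without overlap. Mertk, a receptor of Gas6 and protein S, had 2.30 and 2.09 CPM in KO 1 and KO 2, against 3.89 and 8.14 CPM in control 1 and control 2 (−1.42 ± 0.31, adjusted p = 0.0405; −0.82 without control 2 in the group-alone fit). It was a gene of enterocyte-like cells, with 28.3 and 16.7 CPM in KO 1 and KO 2 and 21.4 and 31.2 CPM in control 1 and control 2 there, so within that class the groups overlapped. With control shares the Mertk ratio was 0.22 in mouse 1 and −0.93 in mouse 2, against −0.76 and −1.96 as summed. Fgf15, a bile-acid-responsive hormone of the ileum, fell by 2.31 (SE 0.23, adjusted p = 0.00522), with 0.216 and 4.09 CPM in KO 1 and KO 2, against 1.72 and 17.7 CPM in control 1 and control 2. These groups overlapped, since Fgf15 also followed the mouse, and the group-alone fit gave 0.37 without control 2, −1.27 without KO 1 and −5.57 without KO 2.

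Further calls within classes are given with the block. Fgfrl1, an FGF receptor relative with no kinase domain, fell in cycling-like cells (−0.45 ± 0.13, adjusted p = 0.0304) and in goblet-like cells (−0.55 ± 0.16, adjusted p = 0.0460). In goblet-like cells it had 90.01 and 53.6 CPM in KO 1 and KO 2, against 110 and 87.4 CPM in control 1 and control 2. These groups overlapped, and in the group-alone fit without KO 2 it gave −0.19 in cycling-like and −0.16 in goblet-like cells, and without KO 1 −0.75 and −0.94. In enterocyte-like cells Fgfbp1, a carrier that releases stored FGFs, rose by 0.94 (SE 0.18, adjusted p = 4.17e-05), with 141 and 72.7 CPM in KO 1 and KO 2, against 90.4 and 31.4 CPM in control 1 and control 2. These groups overlapped, and the group-alone fit ranged between 0.27 without control 2 and 1.72 without control 1, with 0.39 without KO 1. Csf1r rose there as well, on 12 UMIs in each KO library and 4 in each control (2.47 ± 0.61, adjusted p = 0.00592).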

How the data were processed

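Single-cell RNA was measured with 10x droplets, in 4 libraries. The deposited files hold whole-number UMI counts per gene and barcode, made by the authors with Cell Ranger 3.0.1 on mm10 per the submitters' processing notes. The strand setting is not given in the sources used here, so overlapping genes are uncertain. Insr overlaps Gm16180, an antisense gene with 0 UMIs, and Fgfr2 overlaps 46 counted genes. Positions are from GENCODE M21 (GRCm38).

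Barcodes under 500 genes were left out, as were the highest doublet scores at 0.8% per 1000 barcodes, because the automatic threshold marked 4 to 7 per library. That removed 23 and 31 barcodes in KO 1 and KO 2 and 12 and 4 in control 1 and control 2. Cells were scaled to 10000 counts, and 2000 variable genes, 30 components and 15 neighbours gave 16 Leiden clusters at resolution 1 (scanpy 1.11.5). Clusters were named from marker lists with a score of at least 0.5 and 3 detected markers. A cluster under 0.333 of its libraries' depth needed 2 own markers among its top 10 genes, a limit set after the data were seen. A difference from the study's own cell types may come from these rebuilt names.

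Counts were summed per library and class, with at least 10 cells in each. The main test was two-sided edgeR 4.0.16 (quasi-likelihood, TMM, filterByExpr) on group alone, called at a Benjamini-Hochberg adjusted p below 0.05, with DESeq2 1.42.0 and other settings as alternatives. The script recovered changed genes in data simulated with a set spread and set changes. That checks the code and does not give its power or error rate in these libraries. Numbers 1 and 2 pair the libraries by mouse (2 mice per the labels, with the same mouse mark in the deposited files of each number), so the planned fit with the replicate block is given beside the main one, and "rose" and "fell" refer to it. Libraries of 1 mouse deviated together from their group means, with a correlation over genes of 0.660 in all cells. It was 0.223 in Paneth-like cells, 0.298 in goblet-like cells, 0.531 in enterocyte-like cells, 0.515 in cycling-like cells and 0.145 in stem-like cells. The block leaves 1 residual degree of freedom, against 2 without it. With 1 culture per mouse and group, p-values measure the spread between these libraries. Libraries of a group were not copies of each other (chi-square per degree of freedom 60.4 in KO and 87.0 in control).

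Tested were 10 receptors in all cells, cycling-like and goblet-like cells, 8 in stem-like cells (not Kit and Fgfr3), 7 in enterocyte-like cells (not Kit, Fgfr2 and Ephb3) and 6 in Paneth-like cells (not Met, Mst1r, Fgfr2 and Epha2), the rest being below the filter. Intervals are exact Poisson 95% intervals and, like floors of 3 counts, cover counting error only. Named were all 10 receptors, their known ligands, and called genes of the lists, which, like the receptors, were chosen with earlier results of these data known. Insr has no entry among the promoters. A called gene of the lists in cycling-like cells is not reported here.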

Additional observations from a re-analysis of the deposited data

Results flagged for a closer look

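Mst1r, the Ron receptor, had fitted differences of opposite sign in stem-like and cycling-like cells, neither of them called. Pairs of classes were listed here because their signs differed. In stem-like cells the log2 difference of Mst1r was 0.29 ± 0.54 with the block, with both KO libraries above the control of the same mouse. In cycling-like cells it was -0.3 ± 0.22, with both below. The difference between these classes was not tested, and the stem-like values rest on 18 cells and 1 UMI of Mst1r in control 2. Ephb2 had opposite signs likewise, without a call. It was at -0.15 ± 0.28 in enterocyte-like cells, with both KO libraries below the control of the same mouse. In goblet-like cells it was at 0.13 ± 0.19, with both above, and this difference was not tested. Enterocyte-like clusters did not all go that way: Ephb2 was lower in KO in both mice in cluster 8, higher in both in cluster 3 (8.16 and 5.82 CPM in KO 1 and KO 2, 7.24 and 5.17 CPM in control 1 and control 2) and split in cluster 12, and the mix of these clusters differed between libraries. With 2 libraries per group no single library could be screened as standing apart from its group.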

How the results depend on the processing

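Counts of called genes depended on the model. In all cells the group-alone fit called 0 genes, the fit with the replicate block, which pairs the libraries by mouse, 1573, and that block without the low-depth clusters 2284. DESeq2 called 131, and 872 with the block, while leaving out any library gave 0. In stem-like cells the main fit called 0, the block 70, no filter 88, DESeq2 13, DESeq2 with the block 41, clustering without the receptors 1 (289 with the block), and leaving out a library 30 to 85. In cycling-like cells the order was 0, 924, 326, 56 and 109, with 886 for the block without the receptors in the clustering and 0 to 177 without a library. In enterocyte-like cells it was 0, 189, 41, 6 and 20, with 96 and 0 to 55, and in goblet-like cells 0, 169, 46, 1 and 13, with 24 and 0 to 27. In Paneth-like cells the main fit called 1, each fit with the block 3, no filter 40, and leaving out a library 13 to 124. For the difference of effects between enterocyte-like and cycling-like cells the main fit called 1, RLE scaling 0, the block 138 and leaving out a library 1 to 89, and between goblet-like and cycling-like cells 2, 107 with the block and 13 to 81.

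Fits without a library used no replicate block and left the mice unbalanced. A difference between the mice and the KO difference cannot be told apart in them. Without each library in turn, Insr in all cells ranged between −0.82 and −0.54 and kept its direction. Log2 differences that changed sign in all cells were Igf1r (−0.10 to 0.39), Fgfr2 (−0.46 to 0.40), Fgfr3 (−0.46 to 0.35), Ephb3 (−0.79 to 0.18), Epha2 (−0.80 to 0.47), Kitl (−0.24 to 0.15), Hgf (−0.80 to 0.61), Fgf15 (−5.57 to 0.37) and Spint1 (−0.97 to 0.12). With the mice paired, the summed levels of Igf1r were higher in KO in each mouse, and those of Ephb3, Fgf15 and Spint1 were lower in each. Those of Fgfr2, Fgfr3, Epha2, Kitl and Hgf went opposite ways in the mice. Among Insr, Kit, Ephb3 and Epha2, those in classes were Insr in stem-like (−0.47 to 0.26), Epha2 in enterocyte-like (−0.15 to 0.44), Kit in goblet-like (−0.94 to 0.0571) and Paneth-like cells (−0.91 to 0.0555), and the Insr difference of effects between goblet-like and cycling-like cells (−0.73 to 0.42). Fgfr2 in all cells was also above 0 with no filter (0.0247), DESeq2 (0.000676) and doublets kept (0.00319). Over all receptors tested, leaving out a library changed the sign 8 times in all cells, 9 in enterocyte-like cells, 7 each in goblet-like and cycling-like cells, 6 in Paneth-like cells, 2 in stem-like cells and 8 in each difference of effects, and other settings did so 3 times in all cells, 1 in cycling-like, 1 in enterocyte-like and 4 in Paneth-like cells. The cause was not tested in any of these. Depth limits the rare classes most, with 18 stem-like and 11 enteroendocrine-like cells in control 2.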
